A study of Homo sapiens with 4 samples.

Results

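The H3K27ac peaks of chromosome 13 numbered 4146 in the list from MOLM13 cells given SNDX-50469 with OTX015 (the combination) and 2384 in the list from MOLM13 cells given OTX015 alone, which made 6530 of the 142059 peaks of both lists. They were chosen by position only, as every peak whose chromosome field read 13, so no measured value entered the choice. MOLM13 is an established acute myeloid leukaemia line that carries a KMT2A (MLL1) fusion and an internal tandem duplication of FLT3, itself a chromosome 13 gene. Combination cells received 500 nM SNDX-50469, an inhibitor of the contact between Menin and MLL1, together with 500 nM OTX015, an inhibitor of the BET bromodomain proteins, for 16 h, and the other cells received 500 nM OTX015 alone for 16 h. Both groups therefore carried OTX015, and no untreated cells entered the comparison. Each treatment was represented by 1 chromatin immunoprecipitation library of a single cell line, so no test between treatments was possible and every difference below describes these 2 libraries. The sample titles write H2K27Ac where the antibody label names H3K27Ac, and the mark is called H3K27ac here. The combination list is described with the abbreviation VTP in place of SNDX-50469, and its group was taken from the sample title.

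Acetylation of lysine 27 on histone H3 marks active promoters and enhancers. BET proteins bind acetylated chromatin through their bromodomains and help to release paused RNA polymerase II, and their inhibitors block that binding without removing the acetyl groups. Menin anchors MLL1 and its fusions to chromatin at a set of leukaemia genes, FLT3 among them in KMT2A-rearranged leukaemia. Chromosome 13 is acrocentric and gene-poor, with 3.44 protein-coding genes per Mb against 6.53 over all chromosomes, and it holds long gene deserts as well as the tumour suppressors RB1 and BRCA2 and several genes of the myeloid and lymphoid lineages.

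Promoter sequences of 6 genes are given first, because the strongest shared promoter peaks and the largest differences of cover near a promoter were found there. They came from RefSeq (GRCh38.p14) and run, 5′ to 3′ on the strand of the gene, from 250 bases before to 50 after the start. DACH1 (chr13:71867155-71867454, minus strand), UPF3A (chr13:114281351-114281650, plus strand) and ZMYM5 (chr13:19863600-19863899, minus strand) had the highest mean fold of the genes with a promoter peak in both lists. F10 (chr13:113122549-113122848, plus strand) stood next to DACH1 among the genes covered less round the 5′ end with the combination. SERPINE3 (chr13:51339441-51339740, plus strand) and TM9SF2 (chr13:99501222-99501521, plus strand) led those covered more. Capitals mark, on either strand, the GC box GGGCGG and the CCAAT box; the ETS core GGAAGT, the RUNX core TGTGGT and the E-box CACGTG were searched on both strands too and were found in none of the 6 windows. No match overlapped another.
DACH1: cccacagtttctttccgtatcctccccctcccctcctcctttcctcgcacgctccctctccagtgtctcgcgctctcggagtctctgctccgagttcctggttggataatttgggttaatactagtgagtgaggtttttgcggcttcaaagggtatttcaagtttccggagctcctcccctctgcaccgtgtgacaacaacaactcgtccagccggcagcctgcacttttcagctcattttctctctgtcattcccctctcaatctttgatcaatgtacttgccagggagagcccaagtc
UPF3A: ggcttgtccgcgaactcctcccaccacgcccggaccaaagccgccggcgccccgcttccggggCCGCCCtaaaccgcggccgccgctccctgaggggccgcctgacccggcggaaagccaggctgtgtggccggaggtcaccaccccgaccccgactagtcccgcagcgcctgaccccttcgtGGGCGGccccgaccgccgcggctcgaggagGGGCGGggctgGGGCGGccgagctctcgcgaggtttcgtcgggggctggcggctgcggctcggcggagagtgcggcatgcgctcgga
ZMYM5: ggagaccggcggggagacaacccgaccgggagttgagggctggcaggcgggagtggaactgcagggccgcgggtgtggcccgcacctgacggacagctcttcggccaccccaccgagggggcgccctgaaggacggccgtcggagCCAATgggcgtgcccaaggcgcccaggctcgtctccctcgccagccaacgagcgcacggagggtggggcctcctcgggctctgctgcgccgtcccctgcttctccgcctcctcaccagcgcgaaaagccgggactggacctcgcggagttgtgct
F10: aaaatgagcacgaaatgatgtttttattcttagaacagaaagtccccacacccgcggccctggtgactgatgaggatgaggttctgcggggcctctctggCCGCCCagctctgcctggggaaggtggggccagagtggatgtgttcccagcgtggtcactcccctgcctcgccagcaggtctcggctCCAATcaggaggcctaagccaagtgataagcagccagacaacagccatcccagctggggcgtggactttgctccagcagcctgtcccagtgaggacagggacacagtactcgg
SERPINE3: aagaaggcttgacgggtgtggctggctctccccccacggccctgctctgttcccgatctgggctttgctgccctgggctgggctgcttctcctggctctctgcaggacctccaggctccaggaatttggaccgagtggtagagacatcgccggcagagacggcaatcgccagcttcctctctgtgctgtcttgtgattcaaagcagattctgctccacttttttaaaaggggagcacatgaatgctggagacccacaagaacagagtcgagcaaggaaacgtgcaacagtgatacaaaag
TM9SF2: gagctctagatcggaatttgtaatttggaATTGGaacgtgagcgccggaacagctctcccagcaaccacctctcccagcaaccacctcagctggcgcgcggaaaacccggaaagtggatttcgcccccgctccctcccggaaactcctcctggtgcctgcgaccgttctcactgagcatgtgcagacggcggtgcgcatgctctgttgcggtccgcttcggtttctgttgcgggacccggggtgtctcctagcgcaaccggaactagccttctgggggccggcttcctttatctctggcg

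Combination peaks covered 165 of the 300 bases at DACH1, all 300 at UPF3A, 263 at SERPINE3, 85 at TM9SF2, and 0 at ZMYM5 and F10. OTX015 peaks covered all 300 bases at DACH1 and UPF3A and 0 at ZMYM5, F10, SERPINE3 and TM9SF2. The ZMYM5 and F10 peaks thus lay beside the printed window and reached only in part to within 1 kb of the start. A GC box was present in 4 copies at UPF3A and 1 copy at F10, and a CCAAT box in 1 copy each at ZMYM5, F10 and TM9SF2. Of the 299 chromosome 13 genes with such a 300-base sequence, 56.2% held a GC box, 33.4% a CCAAT box, 21.7% the ETS core, 10.7% the RUNX core and 9.03% the E-box. Over all 15841 protein-coding genes with one the shares were close, at 58.3%, 36.4%, 24.7%, 11.0% and 8.83% in the same order.

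CpG dinucleotides, dense in the promoters of broadly used genes, were unevenly spread over these windows, with 43 at UPF3A, 31 at ZMYM5 and 25 at TM9SF2, but 12 at DACH1 and 10 each at F10 and SERPINE3. Over the whole chromosome the median was 14 CpG in the 32 sequences of promoters with a peak in the combination list only, 23 in the 25 with a peak in the OTX015 list only, 28 in the 60 with a peak in both, and 23.5 in the 182 with none. A GC box was found in 34.4% (95% Wilson interval 20.4 to 51.7%) of the promoters with a peak in the combination list only and in 52.0% (33.5 to 70.0%) of those with a peak in the OTX015 list only. The share was 56.7% (44.1 to 68.4%) for promoters with a peak in both lists and 60.4% (53.2 to 67.3%) for those with none. The combination-only interval overlapped the OTX015-only interval and that of shared promoters, but not that of promoters with no peak. All these intervals cover counting over genes alone, and no test between the groups was run.

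The peaks of chromosome 13 covered 1515 kb in the combination list and 882 kb in the OTX015 list, which is 1.58% of the 96.2 Mb between its first and last annotated gene with the combination and 0.918% with OTX015. Combination cover was 1.72 times and peak number 1.74 times that of OTX015. Cover per base ranked 5 of 24 chromosomes in both lists. Chromosome 14, the acrocentric nearest in length, held 640 combination peaks that covered 0.275% of it and 687 OTX015 peaks that covered 0.309%, a ratio of 0.887. Over the 18 chromosomes outside the 6 most covered ones, cover was 0.323% in the combination list and 0.324% in the OTX015 list, whereas chromosome 6, also densely covered, reached 2.80% in the combination list and 1.27% in the OTX015 list, a ratio of 2.21. Copy number was not measured here, and its part in the cover of chromosome 13 was not tested.

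The lists differed in how weak a peak they could hold, and this bears on every count below. The lowest fold of a peak, the pileup plus 1 over the background plus 1 as MACS2 writes it, was reached by 892 combination peaks (21.5%) and 763 OTX015 peaks (32.0%) of the chromosome. Solved for a Poisson background, those peaks stood for 7 fragments over 1.47 per base in the combination list and 5 fragments over 0.764 per base in the OTX015 list. The combination list could therefore admit a site enriched 4.76 times over background, and the OTX015 list only one enriched 6.54 times. With the combination list reduced, by −log10 p over the whole genome, to as many peaks as the OTX015 list, chromosome 13 held 2340 combination peaks over 972 kb and 2384 OTX015 peaks over 882 kb. With only peaks past an enrichment of 6.54 kept, 47 combination peaks and all 2384 OTX015 peaks remained, which turned the direction. That cut is the lowest enrichment of the OTX015 list itself, so every OTX015 peak passed by construction. The turn under it therefore adds no separate evidence. Greater cover in the combination list thus describes the lists as deposited, and the part of depth in it was not tested beyond these alternatives.

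Most peaks were narrow and weak in both lists. The median width was 266.5 bp in the combination list and 256 bp in the OTX015 list, and the median fold 3.38 in the combination list and 3.51 in the OTX015 list. Only 364 combination peaks and 150 OTX015 peaks had a −log10 q of at least 2. By position, 105 combination peaks (2.53%) and 90 OTX015 peaks (3.78%) touched a promoter, here the 5′ end of a protein-coding gene with 1 kb either side. Gene bodies held 1888 combination peaks (45.5%) and 1006 OTX015 peaks (42.2%), and intergenic sequence the remaining 2153 combination peaks (51.9%) and 1288 OTX015 peaks (54.0%). Promoters made up 0.639% of the span, gene bodies 34.1% and intergenic sequence 65.3%.

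Few peaks were found in both lists, and wide peaks were met most often. Of the combination peaks, 363 of 4146 (8.76%, 95% Wilson interval 7.93 to 9.65%) met an OTX015 peak by at least 1 bp, and of the OTX015 peaks 369 of 2384 (15.5%, 14.1 to 17.0%) met a combination peak. The bases covered in both lists came to 192 kb, or 12.7% of combination cover and 21.7% of OTX015 cover. Over all chromosomes 21.03% of combination peaks and 33.33% of OTX015 peaks were met. Over the 18 less covered chromosomes 18.6% of combination peaks and 20.2% of OTX015 peaks were met. On chromosome 6, also densely covered, 9.63% of combination peaks and 21.6% of OTX015 peaks were met. Width set the peaks of chromosome 13 apart: under 200 bp 3.61% of combination peaks and 6.22% of OTX015 peaks were met, and at 1 to 2 kb 47.1% of 121 combination peaks and 76.7% of 73 OTX015 peaks. At 2 kb or wider, 37 of 40 combination peaks (92.5%) and all 25 OTX015 peaks were met. A wide peak is more easily met by 1 bp than a narrow one, and the part of this in the rise was not tested. Narrower peaks still made up most of those met, with a median width of 534 bp among met combination peaks and 454 bp among met OTX015 peaks. By class, promoter peaks were met most often, with 55.2% of those in the combination list and 61.1% of those in the OTX015 list, while 5.76% of intergenic combination peaks and 9.63% of intergenic OTX015 peaks were.

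**Figure D1:**
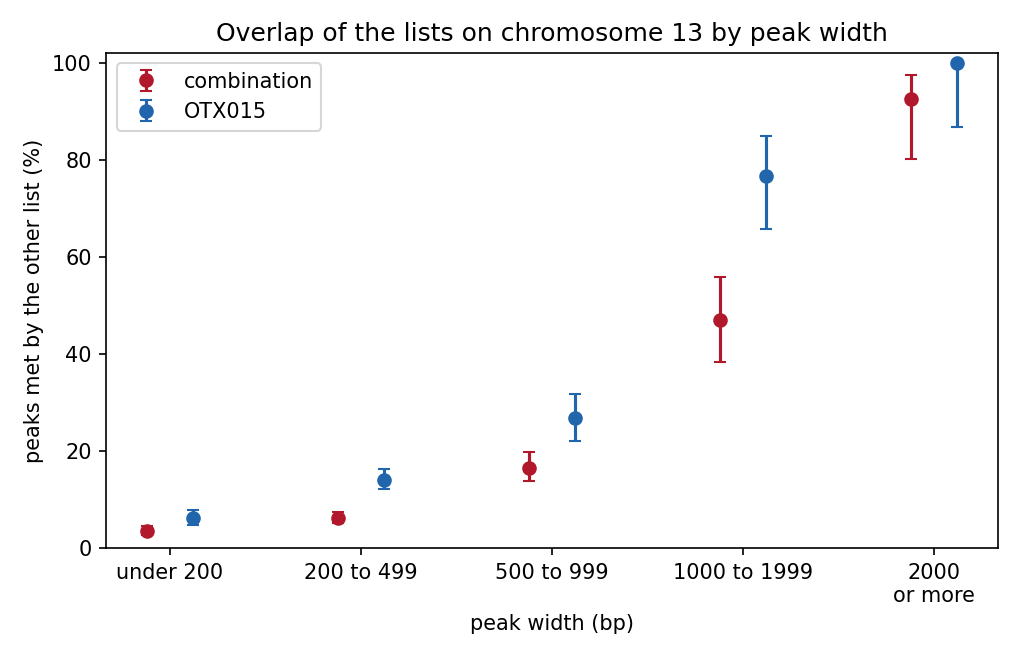
Share of chromosome 13 peaks met by at least 1 bp of the other list (vertical axis, %), by peak width in bp (horizontal axis), with combination peaks in red and OTX015 peaks in blue; bars are 95% Wilson intervals over peaks. Under 200 bp the share was 3.61% for combination peaks and 6.22% for OTX015 peaks, and at 2 kb or wider it was 92.5% for combination peaks and 100% for OTX015 peaks.

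Cover was concentrated in a few stretches of the chromosome. Of the 19 bins of 5 Mb, 18 were covered more in the combination list, beside 52.0% of 602 bins over all chromosomes; with equal peak numbers the count was 8 of 19. The bin at 45 to 50 Mb, which holds LCP1 and RB1 among 38 protein-coding genes, was covered to 4.70% in the combination list and 1.78% in the OTX015 list. The bin at 30 to 35 Mb, with ALOX5AP, FRY and BRCA2, reached 3.91% in the combination list and 2.20% in the OTX015 list. The last bin before the telomere, with RASA3 and UPF3A, was covered to 3.55% in the combination list and 2.90% in the OTX015 list, where it ranked first. The ratio was highest, at 2.99, in the bin at 75 to 80 Mb that holds COMMD6, UCHL3 and MYCBP2, with 2.12% in the combination list and 0.710% in the OTX015 list.

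Gene-poor bins held little cover in both lists. The 3 bins of the gene desert at 55 to 70 Mb had the least cover of the combination list and were among the 4 least covered of the OTX015 list, between 0.167% and 0.249% in the combination list and between 0.126% and 0.213% in the OTX015 list. The ratio varied between gene-poor bins, since the bin at 85 to 90 Mb had 28.1 kb in the combination list and 12.3 kb in the OTX015 list. The bin at 90 to 95 Mb was even, with 16.9 kb in the combination list and 17.0 kb in the OTX015 list. Cover followed gene number over the 19 bins, with a Pearson correlation of 0.79 for the combination list and 0.83 for the OTX015 list. This is a description only, since the bins of a list share 1 library and gene density goes with base composition.

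**Figure D2:**
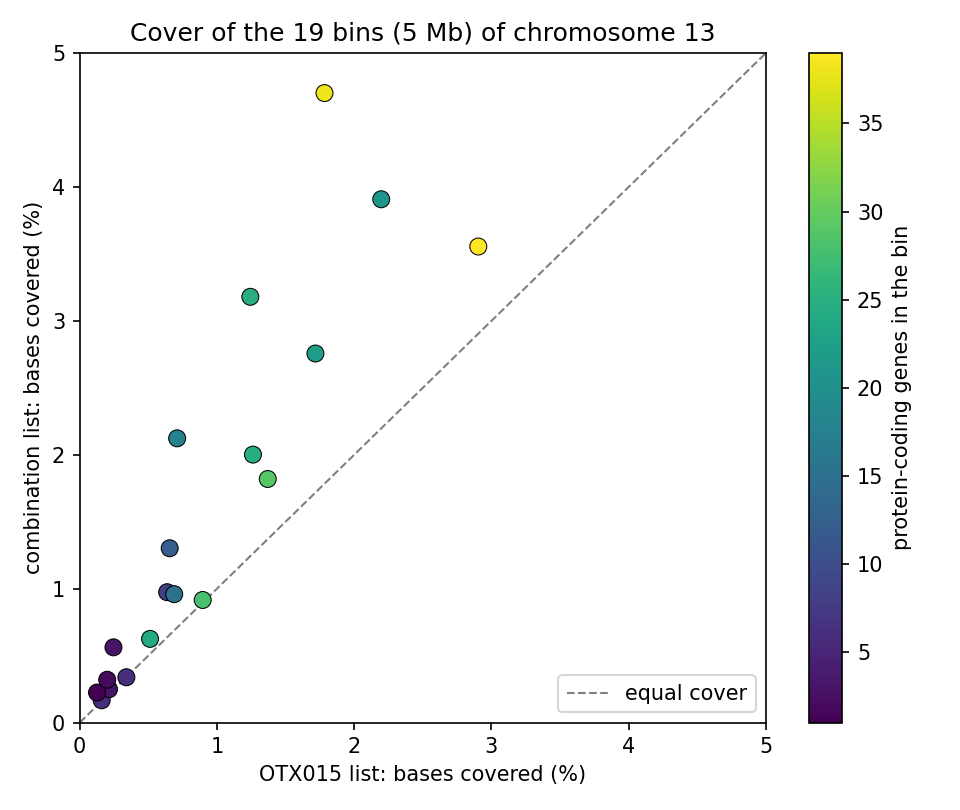
Bases covered in each of the 19 bins of 5 Mb of chromosome 13, in percent, for the combination list (vertical axis) and the OTX015 list (horizontal axis), coloured by the number of protein-coding genes; the dashed line marks equal cover. In all, 18 bins lie above the line, the highest at 4.70% in the combination list and 1.78% in the OTX015 list.

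At promoters the lists were close to even, unlike cover as a whole. Of 331 protein-coding genes, 98 (29.6%) had a promoter peak in the combination list and 91 (27.5%) in the OTX015 list, where the shares over all 19670 genes were 15.3% in the combination list and 14.9% in the OTX015 list. A promoter peak was present in both lists at 65 genes (19.6%, beside 9.02% over all genes), in the combination list only at 33 (9.97%, beside 6.33%) and in the OTX015 list only at 26 (7.85%, beside 5.9%). The order of the counts turned round with stronger peaks, to 29 genes in the combination list and 35 in the OTX015 list at a −log10 q of at least 2, and to 77 in the combination list and 91 in the OTX015 list at equal peak numbers. Both lists marked PSPC1, ZMYM2 and ZMYM5, FLT3 and PAN3, ALOX5AP, FRY, BRCA2, ELF1, TPT1, LCP1, RB1, RNASEH2B, INTS6, GPR18 and GPR183, CUL4A, ING1 and UPF3A.

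Promoters in the combination list only included the shared start region of COMMD6 and UCHL3, which lie back to back, and those of RFC3, a subunit of the replication clamp loader, the receptor genes LPAR6 and CYSLTR2, and MYCBP2 and KLF12. Promoters in the OTX015 list only included those of TFDP1, the dimer partner of E2F, CDC16, a subunit of the anaphase-promoting complex, LIG4, a DNA ligase of end joining, SPRY2, an inhibitor of growth factor signalling, and RASA3, RUBCNL and STK24. Peaks in a single list were mostly weak, since 1 of the 33 combination-only promoters (SERPINE3) and 4 of the 26 OTX015-only promoters (VPS36, CNMD, SOX21 and STK24) had a −log10 q of at least 2. Of the 65 shared promoters, 28 passed it in the combination list and 31 in the OTX015 list. The combination peak of COMMD6 and UCHL3 was 1306 bp wide with a fold of 3.64, and that at MYCBP2 116 bp wide with a fold of 3.38. The OTX015 peak at TFDP1 was 223 bp wide with a fold of 3.43, and that at CDC16 657 bp wide at 3.40, the lowest fold the list holds. SOX21, a neural transcription factor gene, had an OTX015 peak of 466 bp with a fold of 4.32.

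Where both lists held a promoter peak, its fold was mostly lower with the combination, on chromosome 13 as elsewhere. It was lower with the combination at 52 of the 65 genes and higher at 13, beside 78.4% lower and 21.6% higher over the 1774 such genes of all chromosomes, so the count was near the background. The median fold was 3.71 in the combination list and 4.05 in the OTX015 list. Fewer promoter bases were covered with the combination at 40 of the 65 genes and more at 24, beside 44.5% fewer and 53.1% more over all such genes, and the median was 668 bases in the combination list and 881 in the OTX015 list. On the scale of enrichment over each list's own background, added after seeing the data, the combination value was lower at all 65 genes and at 1766 of the 1774, with a chromosome 13 median of 5.56 in the combination list and 8.05 in the OTX015 list. The lowest enrichment a peak could have was 4.76 in the combination list and 6.54 in the OTX015 list. The scale thus left little room for a higher combination value, and the count on it adds no separate evidence. The part of these limits in the lower folds was not tested.

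DACH1, which encodes a transcriptional corepressor of the dachshund family, differed most. In the OTX015 list its promoter held a single peak of 4245 bp with a fold of 7.27. In the combination list a peak of 165 bp with a fold of 3.26 lay in the promoter. Another of 2718 bp with a fold of 4.07 lay inside the gene and only reached the edge of the promoter. Combination peaks covered 170 bases of the promoter and OTX015 peaks 2001. ZMYM5, which shares its start region with ZMYM2, had a fold of 3.96 with the combination and 6.20 with OTX015. RNASEH2B, a subunit of ribonuclease H2, had a fold of 4.36 with the combination and 5.56 with OTX015. RB1, the pocket protein that restrains E2F, had a peak of 974 bp with a fold of 3.53 in the combination list and one of 1575 bp with a fold of 4.41 in the OTX015 list.

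The difference was smaller at other shared promoters. PAN3, a subunit of a poly(A) nuclease, had 5.00 with the combination and 5.10 with OTX015, and UPF3A, of nonsense-mediated decay, 4.90 with the combination and 5.30 with OTX015. ALOX5AP, the activating protein of 5-lipoxygenase in leukotriene synthesis, had 4.12 with the combination and 4.05 with OTX015. BRCA2, of homologous recombination, was also among the 13 with a higher fold, at 4.33 with the combination and 4.04 with OTX015. FLT3, the receptor tyrosine kinase of blood progenitors, had a peak of 2128 bp with a fold of 3.71 in the combination list and one of 2575 bp with a fold of 4.05 in the OTX015 list.

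**Figure D3:**
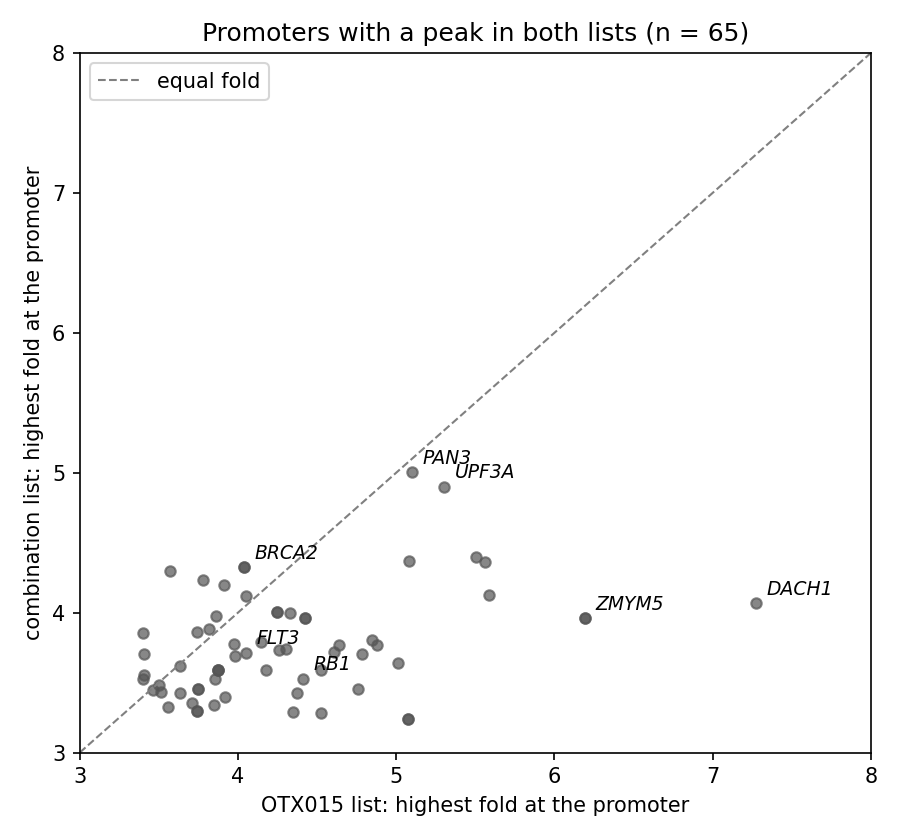
Highest fold of a peak at each of the 65 chromosome 13 promoters with a peak in both lists, combination list on the vertical and OTX015 list on the horizontal axis; the dashed line marks equal fold. In all, 52 genes lie below the line, and DACH1 lies farthest from it, at 4.07 with the combination and 7.27 with OTX015. The 4.07 belongs to a peak that lies inside the gene and only reaches the edge of the promoter.

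Averaged over all 331 genes, cover had a lower summit and higher flanks with the combination. At the 5′ end itself 8.76% of genes were covered in the combination list and 7.85% in the OTX015 list, and within 1 kb either side the mean was 9.24% in the combination list and 9.88% in the OTX015 list. Cover was highest 300 bp inside the gene, where 12.4% of genes were covered in the combination list and 15.4% in the OTX015 list. From 5 to 10 kb on either side the mean was 3.09% in the combination list and 1.86% in the OTX015 list. Over the 18 less covered chromosomes the highest point was 3.50% in the combination list and 5.43% in the OTX015 list, and the flanks were 0.756% in the combination list and 0.717% in the OTX015 list. A lower summit was thus seen there too, with flanks close to even.

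**Figure D4:**
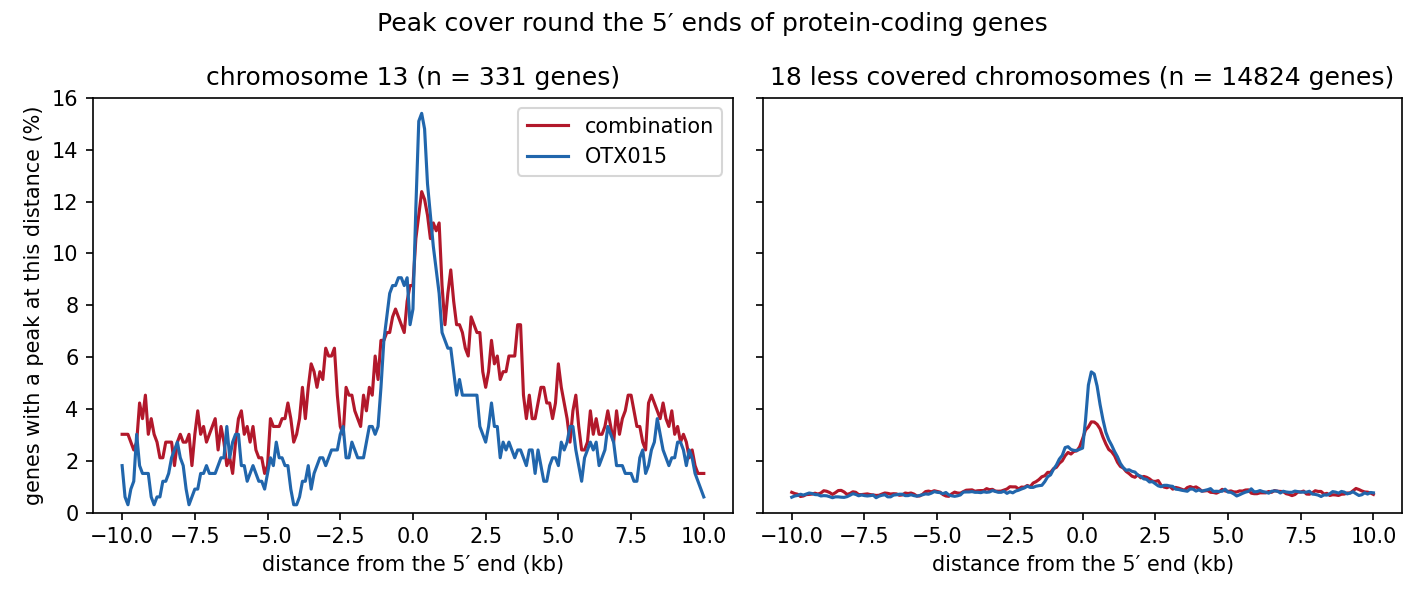
Share of protein-coding genes (vertical axis, %) with a peak at each distance from the 5′ end (horizontal axis, kb, positive into the gene), for chromosome 13 on the left and the 18 less covered chromosomes on the right, combination in red and OTX015 in blue. On chromosome 13 the highest point was 12.4% with the combination and 15.4% with OTX015, and the flanks 3.09% with the combination and 1.86% with OTX015.

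Within 10 kb either side of the 5′ end, 186 genes were covered more with the combination, beside 28.9% of all genes, and 82 less, beside 18.4%; 63 held no peak in either list. The lists shared 7 of their 10 leading genes, namely GPR183, ALOX5AP, GPR18, FRY, RNASEH2B, RASA3 and PAN3. GPR183, a receptor for oxysterols that guides immune cells, led the combination list with 11.1 kb, against 7.93 kb in the OTX015 list. Its neighbour GPR18, another G protein-coupled receptor of leukocytes, had 9.27 kb with the combination and 5.89 kb with OTX015. UBAC2, within whose gene both receptors lie, had 6.23 kb with the combination and 3.65 kb with OTX015, so this whole locus was covered more with the combination.

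ALOX5AP followed with 9.37 kb in the combination list and 6.46 kb in the OTX015 list. LCP1, which encodes the leukocyte actin bundler L-plastin, had 5.76 kb with the combination and 3.34 kb with OTX015. ARL11, of the ARF family of small GTPases, had 5.14 kb with the combination and 2.24 kb with OTX015. RASA3, a GTPase-activating protein for Ras and Rap, had 6.68 kb with the combination and 4.78 kb with OTX015, but over the whole gene with 10 kb either side it had less, 27.7 kb with the combination and 29.5 kb with OTX015. Cover was close at FRY, a large scaffold protein of the NDR kinase pathway, with 7.83 kb in the combination list and 7.12 kb in the OTX015 list. It was close too at RNASEH2B, with 6.71 kb in the combination list and 7.10 kb in the OTX015 list.

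SERPINE3, which lies inside the INTS6 gene, had the largest difference in kb in favour of the combination of all protein-coding genes of the chromosome. It had 4.57 kb in the combination list and 0.257 kb in the OTX015 list. TM9SF2, a membrane protein of endosomes and the Golgi, had 3.78 kb with the combination and 0.116 kb with OTX015, although its promoter peak was only 109 bp wide. WDFY2, an endosomal adaptor, had 3.16 kb with the combination and none with OTX015, and no promoter peak in either list. The cover at WDFY2 and most of that at TM9SF2 thus lay more than 1 kb from the start.

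DACH1 led the OTX015 list with 9.96 kb, against 3.30 kb in the combination list, and no other gene of the chromosome was covered less by as much. F10, the liver gene of coagulation factor X, had none with the combination and 1.78 kb with OTX015, and MBNL2, a splicing regulator, none with the combination and 1.15 kb with OTX015. IRS2, an adaptor of the insulin receptor, had 0.671 kb with the combination and 1.82 kb with OTX015, and SUPT20H, a subunit of the SAGA acetyltransferase complex, 0.125 kb with the combination and 1.18 kb with OTX015. GRK1, a kinase of the retina, had 0.549 kb with the combination and 1.46 kb with OTX015, and N4BP2L1 3.47 kb with the combination and 4.53 kb with OTX015. Apart from N4BP2L1 these were small stretches in both lists.

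Some genes were covered less at the start and more further in. FLT3 had 3.76 kb with the combination and 4.87 kb with OTX015 round its 5′ end, and 12.6 kb with the combination and 7.90 kb with OTX015 over the gene with 10 kb either side. The body of DACH1 held 10.0 kb with the combination and 4.14 kb with OTX015, the opposite of its start. RB1 was nearly even round the 5′ end, with 1.77 kb in the combination list and 1.58 kb in the OTX015 list, and had 8.01 kb with the combination and 3.49 kb with OTX015 over the gene with 10 kb either side.

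**Figure D5:**
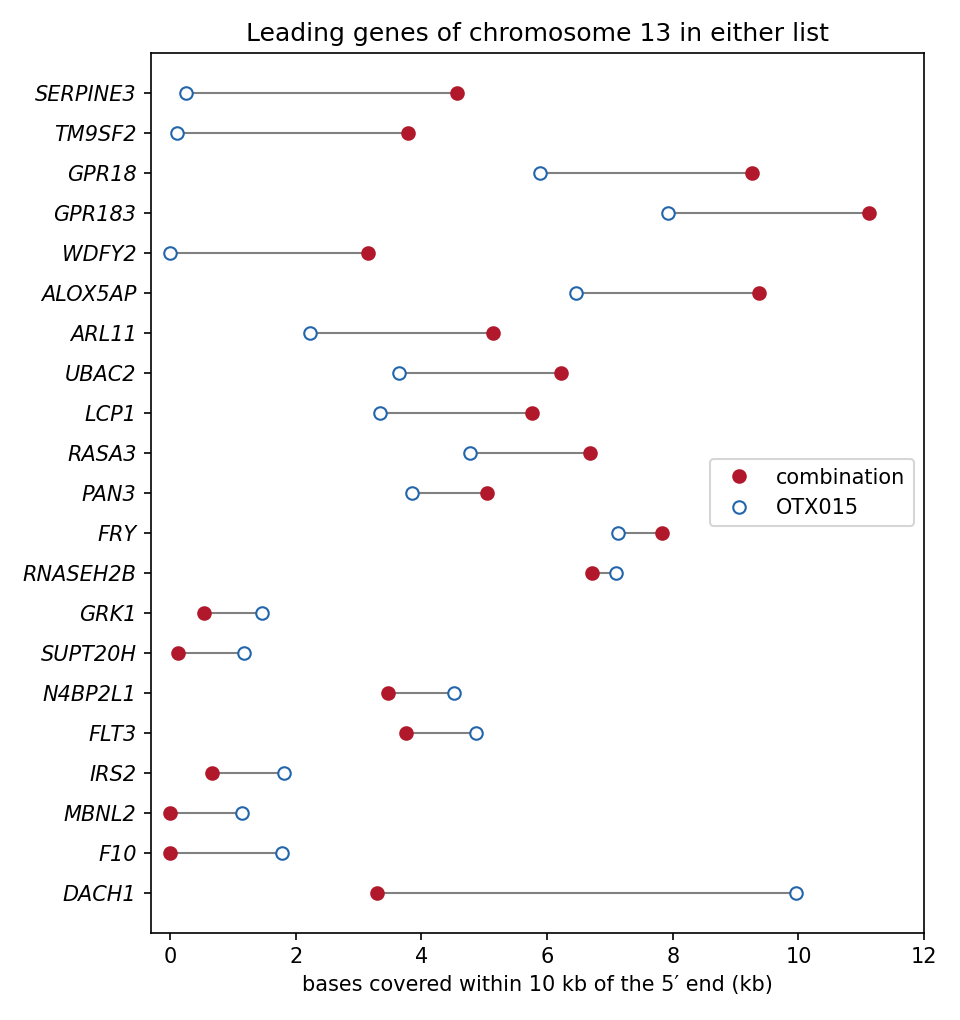
Bases covered within 10 kb either side of the 5′ end (horizontal axis, kb) for the leading and most changed genes of chromosome 13, with filled red points for the combination list and open blue points for the OTX015 list, ordered by difference. GPR183 is highest in the combination list at 11.1 kb and DACH1 in the OTX015 list at 9.96 kb.

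Several of the strongest single peaks lay away from the promoters of protein-coding genes and were in both lists. A FRY peak inside the gene, at chr13:32107452-32120407, was the strongest of the combination list, 12956 bp wide with a fold of 7.01, and met the peak next in strength to DACH1 in the OTX015 list, 8637 bp wide with a fold of 6.71. A combination peak at chr13:46293911-46297963 with a fold of 6.35 met an OTX015 peak with a fold of 5.42, and it lay 84.0 kb from the nearest 5′ end of a protein-coding gene, that of LRRC63. A combination peak at chr13:50123252-50127563, across the 5′ end of the long noncoding RNA gene DLEU2, host of miR-15a and miR-16-1, had a fold of 4.89 and met an OTX015 peak with a fold of 6.25. An OTX015 peak at chr13:50079709-50081825, just before the start of DLEU1, had a fold of 6.41 and met a combination peak with a fold of 3.84. No combination peak met the narrow OTX015 peak at chr13:78265133-78265340, 208 bp wide with a fold of 6.37 and 290 kb from the 5′ end of EDNRB.

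Stitched over the gaps usual in calling super-enhancers and scored by length times fold, the peaks not wholly within 2.5 kb of a 5′ end gave many of the same loci. The highest stretch of the combination list spanned 313 kb over FRY and held 62.0 kb of combination cover and 33.4 kb of OTX015 cover. The next spanned 184 kb over UBAC2, GPR18 and GPR183 and held 50.1 kb of combination cover and 28.6 kb of OTX015 cover. A stretch of 116 kb over RUBCNL held 27.5 kb of combination cover and 11.5 kb of OTX015 cover. In the OTX015 list the highest stretch, 89.5 kb over RASA3, held 23.8 kb of combination cover and 27.2 kb of OTX015 cover. The wider stretch of the combination list over RASA3, 223 kb long, held 35.8 kb of combination cover and 33.4 kb of OTX015 cover. Each stretch was drawn from the peaks of a single list, which favours the cover of that list. An OTX015 stretch of 21.1 kb across and upstream of the DACH1 start held 3.01 kb of combination cover and 11.3 kb of OTX015 cover. The DACH1 stretch takes in the wide promoter peak described above and is no separate evidence. Among the stretches of all chromosomes the FRY one ranked 55 in the combination list and the RASA3 one 85 in the OTX015 list.

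Gene lists were counted over the gene with 10 kb either side. Of the 308 chromosome 13 genes with any cover there, 225 were covered more with the combination and 83 less (median difference 0.60 kb), and of 12953 over all chromosomes 7681 more and 5268 less (median 0.13 kb). Of 20 blood and leukaemia genes, 17 were covered more with the combination and 3 less, with a median difference of 2.62 kb. ALOX5AP had 20.0 kb with the combination and 11.2 kb with OTX015, and LCP1 10.5 kb with the combination and 3.81 kb with OTX015. RUBCNL, an autophagy regulator, had 12.4 kb with the combination and 4.31 kb with OTX015, although its only promoter peak was in the OTX015 list. DACH1, SPRY2 and STK24 were the 3 with less.

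Of 14 cell cycle and growth control genes, 12 were covered more with the combination and 2 less (median difference 1.27 kb). MYCBP2, a large ubiquitin ligase, had 11.6 kb with the combination and 3.63 kb with OTX015, and PDS5B, a cohesin regulator, 4.43 kb with the combination and 1.52 kb with OTX015. Of 8 DNA repair and replication genes, 6 were covered more and 2 less (median difference 0.86 kb), but round the 5′ end 3 were covered more and 5 less. BRCA2 had 7.46 kb with the combination and 3.02 kb with OTX015.

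Of 17 chromatin and transcription genes, 11 were covered more with the combination and 6 less (median difference 0.47 kb). INTS6, of the Integrator complex, had 11.6 kb with the combination and 3.36 kb with OTX015. HMGB1, a chromatin architectural protein, had 9.32 kb with the combination and 4.80 kb with OTX015, and GTF2F2, of the general transcription factor TFIIF, 3.86 kb with the combination and 1.56 kb with OTX015. Of 22 housekeeping and translation genes, 21 held a peak, and 16 were covered more and 5 less (median difference 0.84 kb). UCHL3, a ubiquitin hydrolase, had 3.33 kb with the combination and 0.493 kb with OTX015, and TPP2, a peptidase, 3.53 kb with the combination and 0.779 kb with OTX015.

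Of 18 signalling genes, 10 were covered more with the combination and 8 less (median difference 0.49 kb). FRY had 52.3 kb with the combination and 32.0 kb with OTX015. DOCK9, a guanine nucleotide exchange factor for CDC42, had 9.03 kb with the combination and 3.91 kb with OTX015, and the VEGF receptor gene FLT1 7.63 kb with the combination and 2.64 kb with OTX015. Some list members share cover, as COMMD6 does with UCHL3 and ELF1 with WBP4, so the counts are not of independent loci.

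Markers of the line and of other tissues were read in the same way. FLT3, LCP1 and ALOX5AP, the markers of the line, had promoter peaks in both lists, but of the 20 blood and leukaemia genes 11 had one in the combination list and 11 in the OTX015 list, 8 of them in both. Over all 331 protein-coding genes of the chromosome the shares were 29.6% in the combination list, 27.5% in the OTX015 list and 19.6% in both. Over all 19670 genes they were 15.3%, 14.9% and 9.02% in the same order. Of 32 genes of other tissues, 3 had a promoter peak in the combination list and 5 in the OTX015 list, 1 of them in both, and PCDH17, SHISA2, SLITRK1 and SOX1 held no peak in or near the gene in either list. Of the other 28, 17 were covered more with the combination and 11 less (median difference 0.28 kb). The serotonin receptor gene HTR2A had 6.50 kb with the combination and 0.734 kb with OTX015, and the copper transporter gene ATP7B 5.93 kb with the combination and 1.56 kb with OTX015.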

How the data were processed

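One H3K27ac chromatin immunoprecipitation library of MOLM13 cells per treatment was analysed; the input libraries were not used here. Per the labels, the authors' processing notes name bcl2fastq 2.17, Trimmomatic 0.33, Bowtie 1.1.2, MACS2 2.1.0 and deepTools, and whether the inputs served as controls is not given in the sources used here. The authors deposited broad peaks called per library, each with a score (10 times −log10 q, rounded down, in 86206 of 86207 combination and 55849 of 55852 OTX015 peaks), a fold (ratio of pileup to background, 1 added to both), and a −log10 p and −log10 q, all averaged over the peak by the caller; read numbers are not given. Peaks past the GRCh37 end of 5 chromosomes put the files on a later build, and GRCh38 was used. Genes came from the RefSeq table (GRCh38.p14), 5′ ends from the strand in RefSeq or, by symbol, GENCODE.

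Cover is the union of peak bases. Bins under 2.5 Mb of annotated sequence were left out. Overlaps needed 1 bp (bedtools 2.31.1), and intervals are 95% Wilson intervals over peaks or genes, which cover counting only. The Poisson background was solved from the lowest fold and its −log10 p. Cover, overlap and background code was tested on simulated data. Python 3.11.15, pandas 2.3.3 and scipy 1.17.1 were used. No test between treatments was run.

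Named genes were, at least 20 kb apart, the 10 with most cover within 10 kb of the 5′ end in each list, the 8 most different in each direction, those nearest the 5 strongest peaks or in the 5 highest stretches of each list, the 3 most different of each gene list, and FLT3 and RB1; 1 of these is not reported here. Other members of those lists, CNMD and the DLEU genes were named after their values were seen. Promoter sequences were printed for the 3 shared promoters of highest mean fold and the first 2 changed genes in each direction with a promoter peak. Members and lists were chosen with earlier results of these data known. Alternatives were peaks of −log10 q of at least 2, equal peak numbers, a common enrichment, merging within 1 kb, other promoter windows (0.5 and 2 kb), gene sets, bins (1 and 10 Mb) and overlap of 50% of a peak.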

Additional observations from a re-analysis of the deposited data

How the results depend on the processing

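Log2 ratios of combination over OTX015 were 0.78 for cover, 0.80 for peak number and 0.11 for promoter genes. At equal peak numbers they were 0.14, -0.027 and -0.24, and 8 of 19 bins were covered more with the combination. With a common enrichment over background they were -3.72, -5.66 and -3.51, and 0 of 19 bins were covered more. The cut of that setting is the lowest enrichment of the OTX015 list, which every OTX015 peak passes by construction. These values therefore add no separate evidence. At a −log10 q of at least 2 the ratios were 0.73 for cover, 1.28 for peak number and -0.27 for promoter genes. In that setting 15 of 19 bins were covered more. Promoter genes gave 0.00 with a 0.5 kb window. Merging within 1 kb, a 2 kb window, all genes, bins of 1 and 10 Mb, and, chosen after seeing the data, peaks of at least 1 kb and any RefSeq start kept the direction. The cause of the changes was not tested, beyond the fact that the shallower OTX015 list holds no peak under an enrichment of 6.54.

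The share of combination peaks met was 4.75% with 50% of the peak's own length, 10.7% at a −log10 q of at least 2 and 48.9% at a common enrichment. The share of OTX015 peaks met was 9.65%, 24.7% and 1.09% in the same order. At a common enrichment every OTX015 peak was kept but only 47 combination peaks, which holds the OTX015 share low. A lower fold with the combination was seen at 52 of 65 shared promoters. On the scale of enrichment over each list's own background, added after seeing the data, the combination value was lower at 65 of 65. That scale starts at 4.76 in the combination list and at 6.54 in the OTX015 list, so this count adds no separate evidence. Counted round the 5′ end, 3 of 8 DNA repair and replication genes and 11 of 21 genes of other tissues were covered more with the combination. The other 5 lists kept their direction, with chromatin and transcription genes nearly even at 9 more and 8 less. Gene lists were recounted with this window only, not at equal peak numbers or with other peak sets.

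Of 44 named genes, the difference in cover turned round for 5 at equal peak numbers, 7 at a −log10 q of at least 2, 25 at a common enrichment, 9 over the gene body, 7 over the gene with 10 kb either side and 10 within 50 kb of the 5′ end. Turns at a common enrichment follow largely from the cut, which every OTX015 peak passes, and add no separate evidence. The differences that turned, in kb (combination minus OTX015), were, among the genes whose 5′ cover is given above:
at equal peak numbers RB1 -0.069 and FRY -0.075;
at a −log10 q of at least 2 PAN3 -0.64, RB1 -1.58 and FRY -4.96;
at a common enrichment TM9SF2 -0.12, SERPINE3 -0.26, PAN3 -0.64, RB1 -1.58, ARL11 -2.24, LCP1 -3.34, UBAC2 -3.65, RASA3 -4.78, GPR18 -5.89, ALOX5AP -6.46, FRY -7.12 and GPR183 -7.93;
over the gene body ARL11 -0.16, RASA3 -1.87, IRS2 0.38, MBNL2 0.59, GRK1 2.16, FLT3 4.44 and DACH1 5.89;
over the gene with 10 kb either side RASA3 -1.76, IRS2 0.25, RNASEH2B 1.33, GRK1 3.68 and FLT3 4.67;
within 50 kb of the 5′ end PAN3 -0.15, RASA3 -0.37, IRS2 1.24, RNASEH2B 1.31, GRK1 1.48, FLT3 1.82 and N4BP2L1 2.29.

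With 1 library per treatment there was no replicate to leave out. No paired analysis was possible because each treatment had 1 library and no test was run. Depth is a limit: 892 combination and 763 OTX015 peaks sat at the lowest fold their list can hold, and the absence of a narrow peak from a list does not show absence of the mark.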

Other observations

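Long noncoding RNA genes of chromosome 13 gave values of their own, with the genes named here chosen after their values were seen. Of 485 such genes, 79 (16.3%) held a promoter peak in the combination list and 62 (12.8%) in the OTX015 list, 36 of them in both. Over all 12892 such genes of the table the shares were 9.56% in the combination list, 8.51% in the OTX015 list and 4.99% in both. Chromosome 13 was above the shares over all chromosomes for protein-coding genes too, as given above. MIR17HG, host of the miR-17-92 cluster, had 1.54 kb of cover within 10 kb of its 5′ end with the combination and 1.15 kb with OTX015. DLEU2, host of miR-15a and miR-16-1, had 4.46 kb with the combination and 5.86 kb with OTX015, and DLEU1, which starts within the DLEU2 gene on the other strand, 2.20 kb with the combination and 3.05 kb with OTX015. LINC00462 had 3.98 kb with the combination and 1.88 kb with OTX015.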
